A study of Homo sapiens with 2 samples.

Results

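The genes described are 10 of the ubiquitin system: the ligase genes STUB1, MDM2, SIAH1, SIAH2, RNF6, NEDD4 and UBE3A, the cullin substrate receptors SPOP and SKP2, and the deubiquitinase USP7. They were taken by gene symbol, and all 10 were found among 25268 listed symbols. RNA-seq was done on C4-2B MDVR cells, an established castration-resistant prostate cancer line selected for resistance to the drug enzalutamide and kept in medium with 20 µM enzalutamide. One group was given the vehicle DMSO and the other 20 µM Indocin (indomethacin, a cyclooxygenase inhibitor), each for 3 days and both with enzalutamide in the medium. Each group had 1 library of 1 cell line, so no replicate backs any difference given here, and p-values, errors and intervals cannot be computed. In the following, "with DMSO" and "with Indocin" stand for these single libraries.

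Ubiquitin is passed from an activating enzyme (E1) to a conjugating enzyme (E2) and then, by a ligase (E3), to the substrate, where a chain of ubiquitins can send a protein to the proteasome or change its activity. RING and U-box ligases hold the loaded E2 beside the substrate, whereas HECT ligases first take the ubiquitin onto a cysteine of their own. Cullin ligases are assembled from a scaffold, a RING subunit and an exchangeable receptor that picks the substrate, and deubiquitinases remove the ubiquitin again. STUB1 couples this system to the Hsp70 and Hsp90 chaperones, and SPOP is often mutated in prostate cancer. These enzymes act on protein, so the RNA levels given here do not measure the turnover of any substrate.

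Values are FPKM (fragments relative to transcript length and to all fragments of the library), so levels of different genes can be set side by side. Whether the deposited values were also scaled between the libraries is not given in the sources used here. Differences are given as log2 ratios of FPKM + 1, Indocin over DMSO, and on this scale the fold of a gene with low values comes out too small. Genes counted as tested had a mean of at least 1 FPKM over both libraries, with symbols of short RNA genes left out. They numbered 11965, and all 10 members were among them. The FPKM sum over all listed symbols, short RNA genes included, was 617510 with DMSO and 583096 with Indocin. The number of reads behind a value is unknown. Each of 7 luminal prostate markers stood between 58.1 and 412.7 FPKM, and they summed to 1373 FPKM with DMSO and 1180 FPKM with Indocin. Markers of leukocytes, fibroblasts, endothelium, basal epithelium and neuroendocrine cells, 15 in all, summed to 6.19 and 6.55 FPKM, most of it COL1A1 (4.54 and 4.80 FPKM), and 5 of them were listed at 0 in both libraries.

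The DNA just before annotated transcription starts of the members that differed most is shown first, as the sequence next to which their RNA can start. RefSeq promoter sequences (GRCh38.p14, another build than that of the deposited values) matched 9 of the 10 symbols with 22 starts, STUB1 being the exception. The 250 bases before the start are printed 5′ to 3′ on the gene's strand. Capitals mark matches, on either strand, to the GC box (GGGCGG), the CCAAT box (CCAAT), the E-box (CACGTG), the cyclic AMP response element (TGACGTCA), the C/EBP-ATF composite element (TGATGNAA) and an E2F element (TTTNNCGC). For SIAH1 the window lies at chr16:48385414-48385663 on the minus strand, for SIAH2 at chr3:150763170-150763419 on the minus strand, for NEDD4 (the GC-rich one of its starts) at chr15:55993613-55993862 on the minus strand, and for SKP2 at chr5:36151861-36152110 on the plus strand.
SIAH1: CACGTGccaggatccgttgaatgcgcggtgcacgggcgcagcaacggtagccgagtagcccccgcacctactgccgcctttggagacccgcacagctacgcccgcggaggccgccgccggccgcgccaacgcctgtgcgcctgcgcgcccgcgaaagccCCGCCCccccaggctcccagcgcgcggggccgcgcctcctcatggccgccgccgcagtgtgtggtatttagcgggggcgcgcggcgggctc
SIAH2: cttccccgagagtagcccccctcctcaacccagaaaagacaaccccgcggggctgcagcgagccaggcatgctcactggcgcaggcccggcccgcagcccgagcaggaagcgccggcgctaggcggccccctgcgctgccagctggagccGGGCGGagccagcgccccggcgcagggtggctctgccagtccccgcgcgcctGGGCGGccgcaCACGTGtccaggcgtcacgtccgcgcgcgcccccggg
NEDD4: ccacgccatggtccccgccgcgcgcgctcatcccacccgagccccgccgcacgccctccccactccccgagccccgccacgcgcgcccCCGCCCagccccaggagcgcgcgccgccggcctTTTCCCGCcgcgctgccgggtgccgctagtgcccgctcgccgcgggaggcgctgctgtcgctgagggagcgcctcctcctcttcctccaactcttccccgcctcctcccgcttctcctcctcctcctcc
SKP2: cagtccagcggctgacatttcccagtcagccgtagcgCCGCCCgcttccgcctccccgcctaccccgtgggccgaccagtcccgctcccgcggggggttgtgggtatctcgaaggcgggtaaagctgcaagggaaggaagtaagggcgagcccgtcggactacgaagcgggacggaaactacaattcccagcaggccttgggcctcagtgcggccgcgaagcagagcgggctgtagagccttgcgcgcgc

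Both SIAH windows printed above hold an E-box, which 6.31% of all 34796 promoter windows of this length hold. Among the 22 member windows these 2 (9.09%) were the ones with a match. A GC box was found in 15 of the 22 windows, in 8 of the 9 genes, against 42.6% of all windows, but member windows are also richer in GC (median 67.2% against 58.0%), and starts of 1 gene that overlap were each counted. The CCAAT box was found in 10 member windows (32.0% of all windows). The E2F element was found in 4 (5.89% of all windows), from MDM2, NEDD4 and UBE3A. Neither the C/EBP-ATF composite element (3.16% of all windows) nor the cyclic AMP element (1.64%) matched in any of the 22. SIAH1 has another start, not printed, whose window has a GC box and no other match, and so no E-box. That both printed SIAH windows hold one thus depends on which SIAH1 start is shown. The other NEDD4 starts, which lie in DNA of 36.0% and 36.4% GC, hold a CCAAT box each. A match describes letters, not binding. The deposited values are per gene and do not say which start was used.

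Among the members, SIAH1, NEDD4 and SIAH2 were higher with Indocin by at least 1.2-fold and SKP2 was lower by as much, while the other 6 lay within 1.2-fold. None of the 10 was past 1.5-fold in either direction, though NEDD4 was with a pseudocount of 0.1 FPKM (0.60) and SIAH1 with upper quartiles made equal (0.61). Of all tested genes, 9.90% were at least 1.2-fold higher, 11.7% at least 1.2-fold lower and 2.93% past 1.5-fold either way (2.19% higher and 0.744% lower). The members' median log2 ratio was 0.07, with 6 above 0 and 4 below, beside a median of -0.02 for all tested genes (quartiles -0.15 and 0.11). Summed over the 10 genes, the level was 321.4 FPKM with DMSO and 324.2 FPKM with Indocin. The split of all tested genes past 1.2-fold depended on scaling, with 45.8% of them on the higher side as deposited and 68.0% when both libraries were given the same upper quartile. Under that scaling 14.8% of all tested genes were at least 1.2-fold higher and 6.99% as much lower. List counts at equal upper quartiles are to be read against these shares, and list counts as deposited against the 9.90% and 11.7% above.

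**Figure D1:**
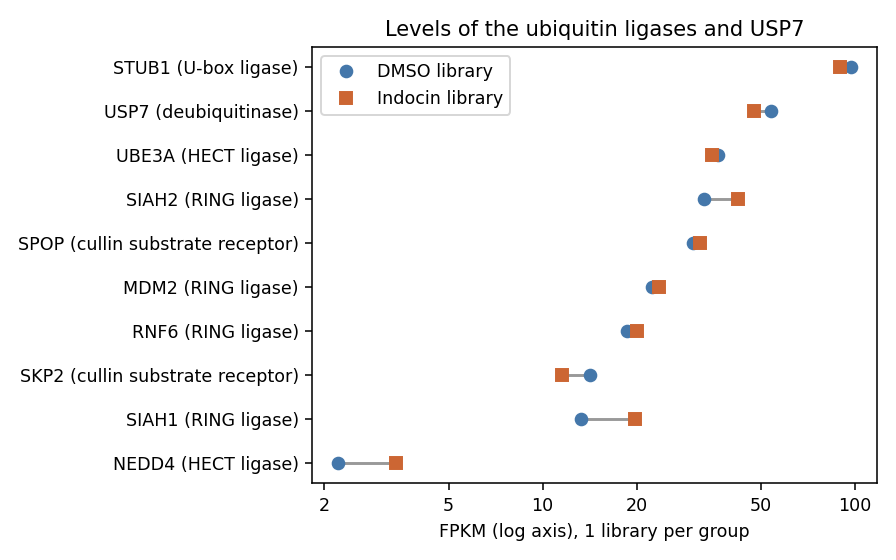
FPKM (log axis) of each of the 10 genes, from the lowest to the highest level with DMSO, with a circle for the DMSO library and a square for the Indocin library (1 library each). STUB1 is the highest at 97.3 and 89.7 FPKM and NEDD4 the lowest at 2.21 and 3.41 FPKM, and the lines between the points are longest for NEDD4 and SIAH1.

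The order of the levels was nearly the same in both libraries. In the DMSO library it ran STUB1, USP7, UBE3A, SIAH2, SPOP, MDM2, RNF6, SKP2, SIAH1 and NEDD4. In the Indocin library SIAH2 stood above UBE3A and SIAH1 above SKP2, and the other places were kept. With 1 library per group, neighbours in this order have no spread by which to separate them. STUB1 alone made up 30.3% of the members' summed FPKM with DMSO and 27.7% with Indocin.

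The SIAH ligases are small RING proteins that mark other proteins for degradation, among them the prolyl hydroxylases of the hypoxia factor HIF1A. SIAH1 stood at 13.3 FPKM with DMSO and 19.7 FPKM with Indocin, a log2 ratio of 0.54. Among tested genes 304, or 2.54%, had a higher ratio. SIAH2 stood at 32.9 FPKM with DMSO and 42.2 FPKM with Indocin, a log2 ratio of 0.35, with 708 tested genes, or 5.92%, above it. Both SIAH genes were thus higher with Indocin, and both lay above the 95th percentile of genes of the same expression class (10 classes of equal size by mean FPKM), which was 0.32 for SIAH1 and 0.28 for SIAH2. The SIAH2 level was 2.48 times that of SIAH1 with DMSO and 2.14 times with Indocin, a quotient that does not depend on how the libraries are scaled. The third family member, SIAH3, was listed at 0 in both libraries. SIAH1 shares part of its locus with LONP2 on the opposite strand, a peroxisomal protease gene at 36.9 and 38.7 FPKM (0.07). The libraries were made strand-specific, but whether strand was used in counting is not given in the sources used here, so reads of the pair may not be told apart.

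Among 6 tested SIAH substrates, 2 were lower by 1.2-fold or more and none was higher by as much, beside 11.7% and 9.90% of all tested genes. The lower ones were TRAF2, an adaptor of TNF receptors, at 21.2 and 14.9 FPKM (-0.48), and the prolyl hydroxylase EGLN3 at 6.75 and 4.79 FPKM (-0.42). EGLN1 (-0.09) and beta-catenin, CTNNB1 (-0.02), differed less. NCOR1, a nuclear receptor corepressor, stood at 12.4 and 14.9 FPKM (0.24), and the kinase HIPK2 had a ratio of 0.07. The substrate median was -0.06, and it became 0.01 with the same upper quartile in both libraries, where 1 gene passed 1.2-fold on the higher side.

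MDM2 is a RING ligase whose gene is amplified in some tumours. It stood at 22.5 FPKM with DMSO and 23.6 FPKM with Indocin, a log2 ratio of 0.07. Its level was therefore close in both libraries, and 71.9% of tested genes had a ratio at least as far from 0. MDM4, the relative that has little ligase activity of its own and pairs with MDM2, stood at 5.75 and 6.26 FPKM (0.10), and the quotient of MDM2 to MDM4 was 3.91 and 3.78. None of 8 other genes of the MDM2 circuit was past 1.2-fold, where 9.90% of all tested genes were higher and 11.7% lower. The median of the 8 was 0.03. They included, beside MDM4, the phosphatase PPM1D (-0.16), CDKN2A (-0.14), whose ARF product inhibits MDM2, the ligases RCHY1 (-0.05) and RFWD2 (0.08), and the ribosomal proteins RPL5 (0.05) and RPL23 (0.05), which bind MDM2.

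RNF6 is a RING ligase. It stood at 18.6 FPKM with DMSO and 20.0 FPKM with Indocin, a log2 ratio of 0.10, which is within 1.2-fold. Of 63 tested genes with RNF symbols, RNF6 included, 7 were at least 1.2-fold higher and 1 was as much lower. Past 1.2-fold, 9.90% of all tested genes were higher and 11.7% lower. The median of the 63 was 0.05. With upper quartiles made equal, 16 of 64 were higher by this fold and none lower, beside 14.8% and 6.99% of all tested genes. The highest were RNF144B (1.47 and 4.53 FPKM, 1.16), RNF41 (29.4 and 47.9 FPKM, 0.69) and RNF187 (105.7 and 156.9 FPKM, 0.57), the first 2 of them past 1.5-fold. RNF26 (-0.33), RNF168 (-0.26) and RNF24 (-0.20) were the lowest.

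STUB1 encodes CHIP, the U-box ligase that binds chaperones and ubiquitinates the proteins they hold. It stood at 97.3 FPKM with DMSO and 89.7 FPKM with Indocin, a log2 ratio of -0.12. It was the most abundant member in both libraries and lay within 1.2-fold, and 54.8% of tested genes had a ratio at least as far from 0. STUB1 overlaps JMJD8 on the opposite strand (71.9 and 63.7 FPKM, -0.17), with the same limit on strand as for SIAH1.

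The chaperones and cochaperones that work with STUB1 were lower with Indocin as a list. Of 11 tested partners 7 were lower by 1.2-fold or more and none was higher by as much, beside 11.7% and 9.90% of all tested genes. Their median was -0.29, and all 11 ratios were below 0. With either upper quartiles or sums made equal in both libraries, 10 were below 0 and 2 were at least 1.2-fold lower. At equal upper quartiles the partners' median was -0.22, and 6.99% of all tested genes were lower by this fold. HSPA8, the constitutive cytosolic Hsp70 to which STUB1 binds, stood at 1446 and 1119 FPKM (-0.37). HSPA1B (73.2 and 44.5 FPKM, -0.71) was the single partner past 1.5-fold, and its near-identical copy HSPA1A was under the minimum mean, so their reads may be shared. HSPA4 (-0.32), HSP90AA1 (-0.32) and the exchange factors BAG3 (-0.31) and BAG1 (-0.29) came next, and BAG2, which inhibits STUB1, was the nearest to 0 (24.8 and 23.6 FPKM, -0.07), then ST13 (-0.09) and HSP90AB1 (-0.17). The quotient of HSPA8 to STUB1 was 14.9 with DMSO and 12.5 with Indocin.

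**Figure D2:**
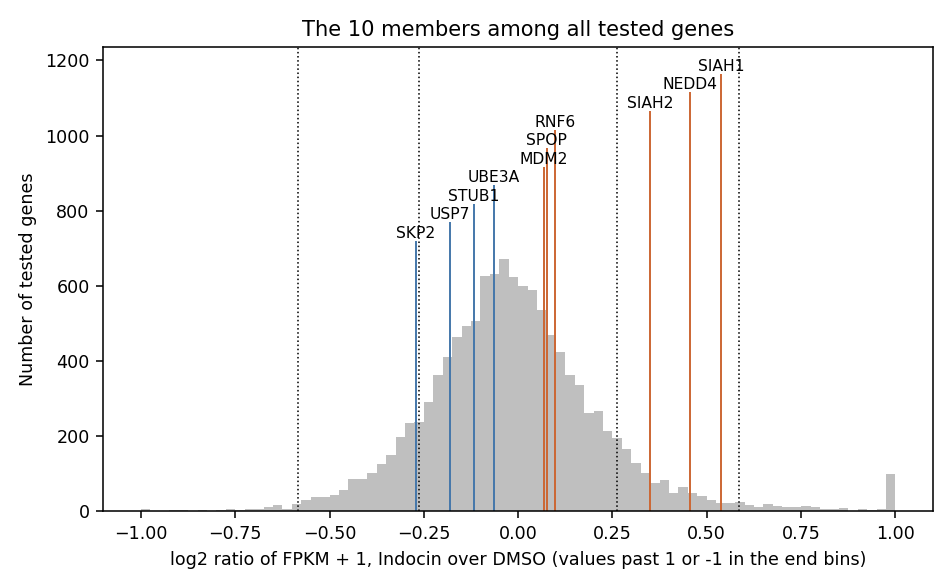
Histogram of the log2 ratio of FPKM + 1 (Indocin over DMSO) of all 11965 tested genes (ratios past 1 or -1 are in the end bins), with a line for each of the 10 members (orange above 0, blue below 0) and dotted lines at 1.2-fold and 1.5-fold. SIAH2, NEDD4 and SIAH1 stand between the dotted lines on the right, SKP2 just past the inner line on the left, and the other 6 lie in the bulk of the histogram.

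NEDD4 is a HECT ligase with WW domains, by which it binds its substrates and adaptors. It was the member with the lowest level, 2.21 FPKM with DMSO and 3.41 FPKM with Indocin. Its log2 ratio was 0.45, which 427 tested genes, or 3.57%, exceeded, and its FPKM quotient was 1.54, the highest of the members. On the log2(FPKM + 1) scale it lay under 1.5-fold and slightly below the 95th percentile of its expression class, which was 0.46. Its close paralog NEDD4L stood far above it, at 44.3 and 38.5 FPKM (-0.20). The quotient of NEDD4L to NEDD4 was therefore 20.0 with DMSO and 11.3 with Indocin.

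UBE3A, also called E6AP, is the HECT ligase lost in Angelman syndrome. It stood at 36.4 FPKM with DMSO and 34.8 FPKM with Indocin, a log2 ratio of -0.06, and this sign turned to 0.01 with either upper quartiles or sums made equal. UBE3A was thus the member nearest to 0, and 73.7% of tested genes had a ratio at least as far from it. In the annotation used for names it overlaps the antisense transcript SNHG14, for which no value is used here. Of 16 other tested HECT ligases and NEDD4 adaptors, none was at least 1.2-fold higher and 1 was as much lower, the adaptor NDFIP2 (30.2 and 24.1 FPKM, -0.31), with a median of 0.07. As deposited, 9.90% of all tested genes were higher by this fold and 11.7% lower. With upper quartiles made equal, 2 of the 16 were higher by this fold and none lower, where 14.8% of all tested genes were higher and 6.99% lower. UBE3B (13.6 and 16.4 FPKM, 0.26) and HUWE1 (0.23) were the highest, and NEDD4L and UBE3C (64.1 and 59.6 FPKM, -0.10) were the lowest after NDFIP2. The NEDD4 paralogs ITCH (0.04), WWP1 (0.00), WWP2 (0.12), SMURF1 (0.11) and SMURF2 (0.14) all lay within 1.2-fold.

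SPOP is the receptor that brings substrates to the scaffold CUL3. It stood at 30.2 FPKM with DMSO and 31.9 FPKM with Indocin, a log2 ratio of 0.08, within 1.2-fold. CUL3 stood at 15.9 and 15.6 FPKM (-0.03), and the quotient of SPOP to CUL3 was 1.90 and 2.04. SPOPL, the paralog that joins SPOP in the ligase, stood at 7.38 and 8.07 FPKM (0.11). Of 9 tested SPOP substrates 1 was at least 1.2-fold higher and 3 were as much lower, beside 9.90% and 11.7% of all tested genes. Their median was -0.11 (-0.03 with upper quartiles made equal, where 1 was higher and 2 were lower). The higher one was fatty acid synthase, FASN (286.5 and 537.7 FPKM, 0.91), which was also past 1.5-fold. The mitotic activator CDC20 (142.8 and 102.0 FPKM, -0.48), MYC (113.9 and 81.6 FPKM, -0.48) and the chromatin protein DEK (46.9 and 37.3 FPKM, -0.32) were the lower ones. The coactivators NCOA3 (5.81 and 6.52 FPKM, 0.14) and TRIM24 (0.10) and the bromodomain proteins BRD2 (-0.11) and BRD3 (-0.11) lay within 1.2-fold, and ERG was under the minimum mean.

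SKP2, the F-box receptor of the CUL1 ligase that degrades the cell cycle inhibitor p27, was the lowest member by ratio. It stood at 14.1 FPKM with DMSO and 11.5 FPKM with Indocin, a log2 ratio of -0.27, with 1323 tested genes, or 11.1%, below it. It lay just past 1.2-fold, and inside the range of its expression class, whose 5th percentile was -0.37. Centring all ratios on their median moved it to -0.25, under 1.2-fold. The other parts of its ligase were SKP1 (137.7 and 138.3 FPKM, 0.01), CUL1 (28.7 and 26.6 FPKM, -0.11), the RING subunit RBX1 (110.5 and 101.1 FPKM, -0.13) and the cofactor CKS1B (125.5 and 112.5 FPKM, -0.16). SKP1 thus stood at 9.74 times the SKP2 level with DMSO and 12.0 times with Indocin. None of the 12 cullin ligase partners of SPOP and SKP2 was past 1.2-fold. Past this fold, 9.90% of all tested genes were higher and 11.7% lower. The median of the 12 was -0.12, the neddylation enzymes NAE1 (-0.20), UBE2M (-0.16) and UBA3 (0.11) and the exchange factor CAND1 (-0.18) included.

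Of 9 tested SKP2 substrates 5 were at least 1.2-fold lower and 2 as much higher, beside 11.7% and 9.90% of all tested genes. Their median was -0.45. Cyclin E1, CCNE1 (15.3 and 9.38 FPKM, -0.65), and the origin protein ORC1 (17.1 and 10.8 FPKM, -0.61) were past 1.5-fold (1 gene with upper quartiles made equal, none with equal sums), and the licensing factor CDT1 (-0.54), MYC and cyclin D1, CCND1 (98.2 and 71.6 FPKM, -0.45), were the other lower ones. The cell cycle inhibitor CDKN1A (79.0 and 112.4 FPKM, 0.50) and the pocket protein RBL2 (15.1 and 18.3 FPKM, 0.26) were the higher ones. CDKN1B, which encodes p27, stood at 33.1 and 33.5 FPKM (0.01), so that its quotient to SKP2 was 2.34 with DMSO and 2.90 with Indocin. Several of these genes are expressed with the cell cycle, as SKP2 is, and the part of cell cycle state in the SKP2 value was not tested. Of 48 tested genes with F-box symbols (SKP2 does not carry such a symbol), 6 were at least 1.2-fold higher and 2 as much lower, with a median of 0.02 (11 and 1 with upper quartiles made equal, beside 14.8% and 6.99% of all tested genes). FBXO42 (10.5 and 17.5 FPKM, 0.68) was past 1.5-fold, FBXW4 (0.40) and FBXL20 (0.36) followed, and FBXO5, an inhibitor of the anaphase-promoting complex (10.9 and 7.11 FPKM, -0.55), FBXO31 (-0.28) and FBXO45 (-0.25) were the lowest.

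USP7, which removes ubiquitin from MDM2 among others, was the second most abundant member. It stood at 53.8 FPKM with DMSO and 47.4 FPKM with Indocin, a log2 ratio of -0.18, within 1.2-fold, with 20.7% of tested genes below it. The quotient of USP7 to MDM2 was 2.40 with DMSO and 2.01 with Indocin. Of 8 USP7 substrates and partners, MDM2 included, 4 were at least 1.2-fold lower and none was as much higher, beside 11.7% and 9.90% of all tested genes. Their median was -0.27. With upper quartiles made equal, 3 were lower by this fold (6.99% of all tested genes) and the median was -0.20. UHRF1 (24.8 and 14.4 FPKM, -0.75) and the checkpoint adaptor CLSPN (6.15 and 3.56 FPKM, -0.65) were past 1.5-fold (1 gene with equal sums), and the methyltransferase DNMT1 (47.0 and 35.6 FPKM, -0.39) and the ligase RAD18 (-0.29) were the other lower ones. GMPS, the enzyme that binds USP7, stood at 96.4 and 81.0 FPKM (-0.25). MDM4 and MDM2 were the 2 above 0, and the ligase TRIP12 (-0.04) was the nearest below it. The part of cell cycle state in the lower values of this list was not tested.

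The 44 tested USP family members, USP7 included, held 1 gene at least 1.2-fold higher, USP40 (10.1 and 13.1 FPKM, 0.35), and 2 as much lower, USP2 (5.63 and 4.10 FPKM, -0.38) and USP27X (2.64 and 1.91 FPKM, -0.32). As deposited, 9.90% of all tested genes were higher by this fold and 11.7% lower. The median of the 44 was -0.03, and it was 0.04 with the same upper quartile in both libraries. There, 5 of the 44 were higher by 1.2-fold and 2 lower (14.8% and 6.99% of all tested genes). USP39 (-0.26), USP25 (0.21), USP36 (-0.21) and USP11 (0.21) came next in size.

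**Figure D3:**
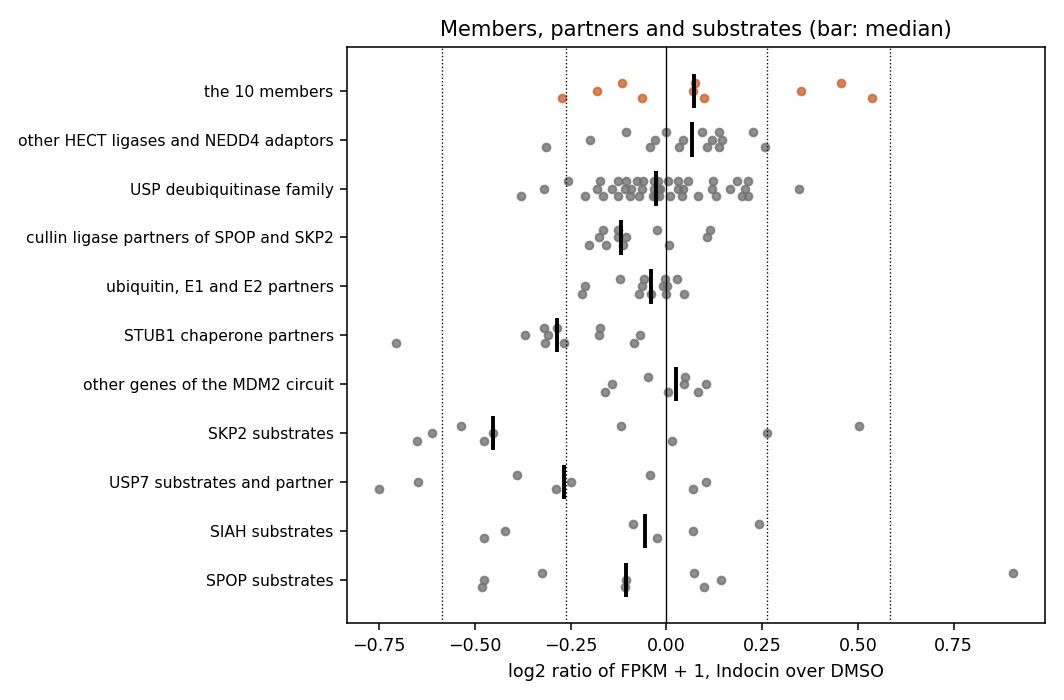
Log2 ratio of FPKM + 1 (Indocin over DMSO) of each tested gene in 11 lists, with the 10 members in orange at the top, a black bar at each list's median and dotted lines at 1.2-fold and 1.5-fold. The ligase, cullin and ubiquitin lists gather near 0, whereas the STUB1 chaperone partners (median -0.29), SKP2 substrates (-0.45) and USP7 substrates (-0.27) lie lower.

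The ubiquitin genes and the E1 and E2 enzymes that serve these ligases lay within 1.2-fold, all 13 of them. Past this fold, 9.90% of all tested genes were higher and 11.7% lower. The median of the 13 was -0.04. The furthest were the polyubiquitin gene UBB (805.3 and 690.9 FPKM, -0.22), the E2 UBE2L3 (77.0 and 66.3 FPKM, -0.21) and the main E1, UBA1 (208.5 and 191.7 FPKM, -0.12). RPS27A (0.05), UBE2E1 (0.03) and UBE2D3 (0.00) were the highest. The E2 enzymes CDC34 (-0.07), which serves cullin ligases, and UBE2D2 (-0.06) were near the median. The list's sign depended on scaling, since 3 of the 13 were above 0 as deposited and 9 with the same upper quartile.

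**Figure D4:**
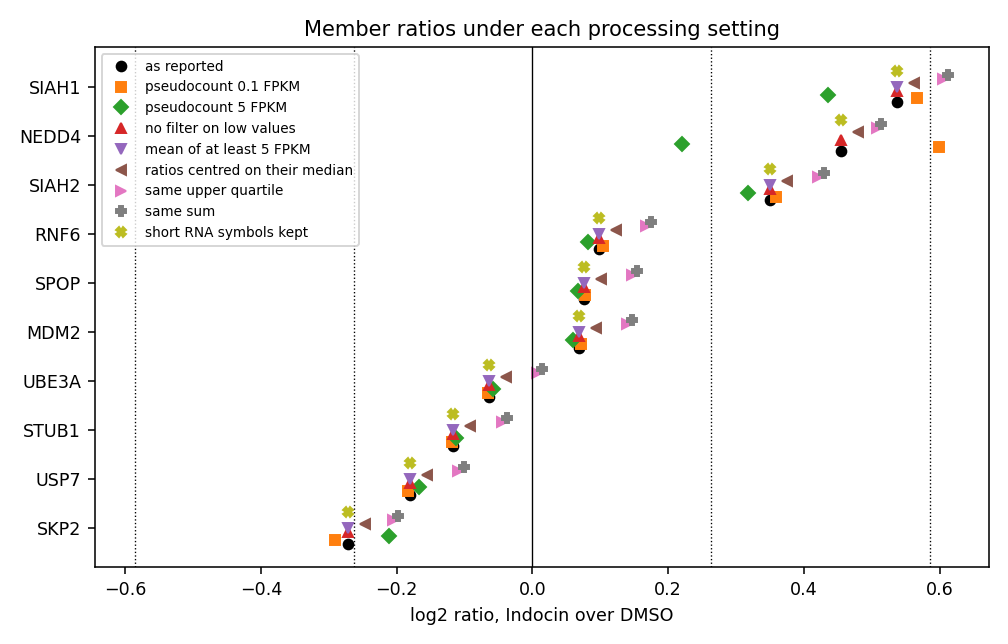
Log2 ratio of each member (Indocin over DMSO) as reported (black circle) and under 8 other processing settings, with dotted lines at 1.2-fold and 1.5-fold. SIAH1, NEDD4 and SIAH2 stay to the right of 0 under every setting in which they were measured and SKP2 to the left, UBE3A crosses 0, and NEDD4 spreads from 0.22 to 0.60 with the pseudocount. Filters and pseudocounts cannot change a sign, and centring or rescaling moved the ratio of every member up.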

How the data were processed

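RNA was measured by strand-specific mRNA sequencing in 2 libraries, 1 per group. The authors deposited FPKM for each gene symbol, per the file headers, and marked every value OK. Builds GRCh37 and hg19 and the tools TopHat, bcl2fastq, StringTie, Cufflinks and Cuffnorm appear in the submitters' processing notes. What each tool did, its version, the annotation and the use of strand in counting were not given in the sources used here.

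From these FPKM, log2((Indocin + 1)/(DMSO + 1)) was computed with Python 3.11.15, numpy 2.4.6 and pandas 2.3.3. Genes whose mean reached 1 FPKM were set against folds of 1.2 and 1.5, and 2043 symbols of short RNA genes were left out, host transcripts kept. A single library in each group allows no test, and read depth is unknown, so no interval was computed. The members and gene lists were chosen with earlier results of these data known, and the lists come from general knowledge. Some genes and lists are not reported here. Members were all named. From each list, the 3 highest and 3 lowest ratios, those past 1.5-fold and fixed partner genes were eligible, and others were named after their values were seen. The calculation was tested on simulated data with changes larger than those of the members and no noise beyond counting. It therefore checks the arithmetic and not the differences reported here. Names of overlapping genes came from GENCODE 29, and promoter sequences from RefSeq (GRCh38.p14), trimmed to the 250 bases before the start.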

Additional observations from a re-analysis of the deposited data

How the results depend on the processing

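Alternatives were pseudocounts of 0.1 and 5 FPKM, no minimum mean or one of 5 FPKM, and centring of the ratios on the median. Others were upper quartiles or sums made equal between libraries, both taken without short RNA symbols, and short RNA symbols kept. The count of members past 1.5-fold, 0 as reported, was 1 with a pseudocount of 0.1 FPKM (NEDD4, 0.60) and 1 with equal upper quartiles (SIAH1, 0.61) or equal sums (SIAH1, 0.61). The count at least 1.2-fold lower, 1 as reported (SKP2), was 0 with a pseudocount of 5 FPKM (-0.21), with centred ratios (-0.25), with equal upper quartiles (-0.20) and with equal sums (-0.20). The count at least 1.2-fold higher stayed between 2 and 3, being 2 with a pseudocount of 5 FPKM, where NEDD4 stood at 0.22, and 2 at a mean of at least 5 FPKM, which NEDD4 did not reach. With a pseudocount of 5 FPKM SIAH1 stood at 0.44. The members' median lay between 0.06 and 0.15 in all 9 settings. UBE3A was the only member whose sign changed, to 0.01 with equal upper quartiles and with equal sums, and 9 settings gave SIAH2 between 0.32 and 0.43. A pseudocount or filter cannot change a sign, and a filter leaves the ratio of a member as it is. Centring, equal upper quartiles and equal sums can change one. Each of them moved all member ratios up, so ratios above 0 could not turn.

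Among all tested genes, 1.2-fold calls numbered 1185 higher and 1400 lower as reported, 521 and 798 with a pseudocount of 5 FPKM and 1845 and 799 with equal sums. At 1.5-fold the higher side held 74.6% of calls as reported and 86.2% with equal sums. No paired analysis was possible because each group has 1 library, and for the same reason no replicate was left out. FPKM without read numbers give no counting error, which bears most on NEDD4, the member with the lowest level.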
